A study of Homo sapiens with 2 samples.

Results

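The RNA levels of 44 genes of homologous recombination and the Fanconi anemia pathway were compared between A375 cells transfected with si-THOC2 and with NC. The rule takes members by gene symbol and uses no measured value. Every probe that carries one of the 44 symbols in the deposited annotation was taken. They had 65 probes among the 34757 gene symbols on the array. A probe counted as measured where the scanner software called it well above background on at least 1 array, and 41 of the 44 members were measured by this rule, among 17514 genes in all. The 3 others were BRCA2, BRIP1 and RNF168.

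A375 is an established line from a human malignant melanoma, and both cultures were grown in the same serum-containing medium. NC is a control siRNA, a short double-stranded RNA with no intended human target, and si-THOC2 is an siRNA against THOC2, the scaffold subunit of the THO complex, which couples transcription to the packaging and nuclear export of mRNA. RNA was harvested at 48 h, and each condition was hybridized to 1 array of a 1-colour Agilent design with 60-base probes placed on hg19. The model is 1 cell line, and the study lists several THOC2 siRNAs without naming the one on the array. There was 1 array per condition and so no replicate: no test could be made, no p-value is given, and every difference is one between these 2 arrays. In RNA from whole cultures, fewer cells of a type and less RNA per cell cannot be told apart.

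The labels of each array conflict, since its source field gives the opposite condition to its title and description, and the titles and descriptions were followed. Both THOC2 probes were lower on the array so labelled si-THOC2, with signals of 136 and 40.9 (NC and si-THOC2) for one and 67.3 and 35.1 for the other, log2 fold changes of -1.42 and -0.63. Of 8 melanocyte lineage markers, 4 were well above background with NC and 5 with si-THOC2, with a summed brightest-probe signal of 6712 and 5575. These sums are not scaled, and the si-THOC2 array was the dimmer one. SOX10 made up most of them (6196 and 5196), and its log2 fold change after scaling was 0.056. Both arrays measured MITF and SOX10, the regulators of the lineage, as well as S100B and the pigment gene DCT (18.0 and 24.4). The pigment genes PMEL, TYR and TYRP1 were measured on neither array, and MLANA only with si-THOC2 (2.94 and 18.7). Of the markers of other cell types, the epithelial KRT5 and EPCAM were not well above background on either array, while epithelial KRT14 read 83.9 and 104 at its brightest probe. The brightest probe of PTPRC (leukocytes) read 27.4 and 28.9 and that of PECAM1 (endothelium) 16.2 and 17.6, where the dimmest signals called well above background were 14.7 and 15.9. The part of such cells in any member's value was not tested.

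Homologous recombination mends a double-strand break by copying the intact sister DNA. The MRN complex (MRE11, RAD50 and NBN) and CtIP start to trim the ends, BRCA1, PALB2 and BRCA2 prepare the single strand for exchange, RAD51B, RAD51C, RAD51D, XRCC2 and XRCC3 assist, and the BLM complex takes joined DNA molecules apart. The Fanconi anemia proteins detect crosslinks between the DNA strands: a core complex with the ligase FANCL and the conjugating enzyme UBE2T marks the FANCD2 and FANCI pair with ubiquitin, and nucleases on the SLX4 scaffold then cut at the crosslink. ATM and ATR are the kinases that report breaks and stalled forks to the checkpoint. Many of these genes are transcribed mostly in S phase, and inherited defects in several of them predispose to cancer.

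All signals below are the scanner's background-subtracted processed signals. A log2 fold change is si-THOC2 over NC after each array's own 75th percentile was taken off, and that percentile was 6.62 for NC and 6.31 for si-THOC2. The si-THOC2 array was therefore the dimmer one, and a gene with an equal signal on both has a log2 fold change above 0. The technical SD beside a value is the median SD of the log2 fold change between repeated spots of probes of like signal. It was 0.052 above a log2 signal of 8 (244 probes), 0.099 from 6 to 8 (36 probes), 0.17 from 4 to 6 and 0.42 below 4 (15 probes). Only 5 repeated probes lay between 4 and 6, with SDs from 0.14 to 0.31, so the error there is itself poorly known. The technical SD leaves out all differences between cultures. For a gene with several measured probes it is the root of their summed squared SDs divided by the number of probes. This takes the probe errors as independent and leaves out any disagreement between probes. A probe printed on several spots was given the same SD as a probe with a single spot.

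The members as a group lay close to no change. The median log2 fold change of the 41 was 0.13, against 0.023 over all 17514 measured genes, and 25 of them were above 0 and 16 below. Their middle values ran from -0.076 (25th percentile) to 0.27 (75th percentile), and those of all genes from -0.18 to 0.20. No member was higher by 2-fold or more, where 2.96% of all measured genes were. ATR was the 1 member lower by 2-fold or more, where 3.34% of all genes were, and it passed only through a probe too dim to be called measured on the si-THOC2 array. At 1.5-fold or more, MRE11A was the 1 higher member (background 6.03%) and XRCC2 and ATR were the 2 lower ones (background 7.19%). These counts are no larger than the background shares. The shares include genes of a mean log2 signal below 4, where 27.4% were higher and 44.8% lower by 1.5-fold. No member lay in that range. MRE11A, XRCC2 and ATR each had a mean log2 signal between 4 and 6, as did 10 members in all. Among all genes of that signal, 10.66% were higher and 10.94% lower by 1.5-fold. With both arrays required, 3.53% of all genes were higher and 2.61% lower by 1.5-fold, against MRE11A and XRCC2 of the members. At 2-fold 0.837% were then higher and 0.352% lower, and no member was.

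**Figure D1:**
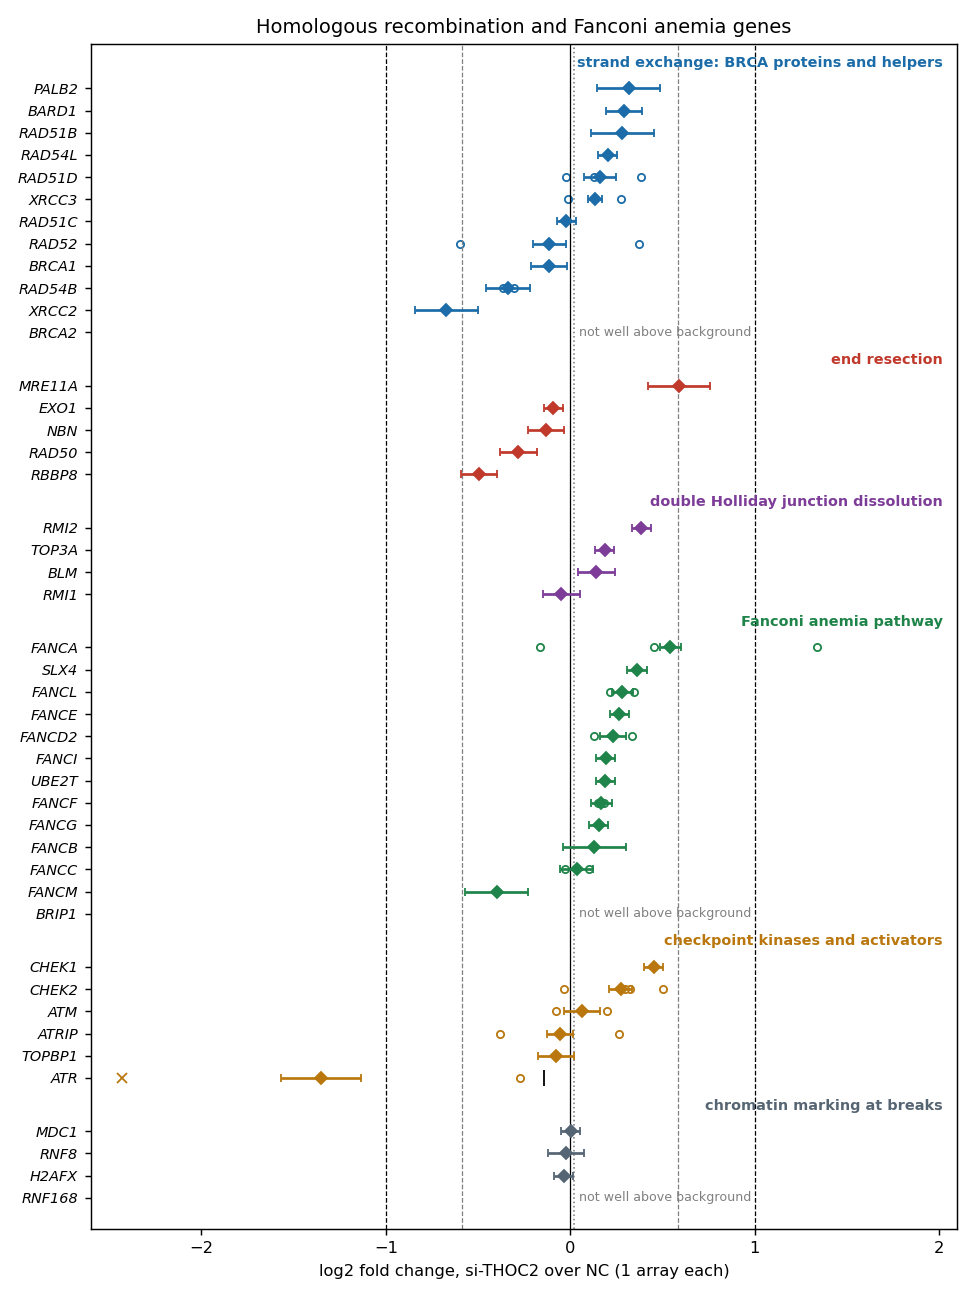
Log2 fold change of the 44 members by role, si-THOC2 over NC, 1 array each. Diamonds are gene values, bars 1 technical SD of repeated spots (not a replicate error), open circles the single probes of genes with several measured probes. The cross is the ATR probe that was dim on the si-THOC2 array and the short black line its limit, dashed lines mark 1.5-fold and 2-fold and the dotted line is the median of all genes (0.023). Most members sit between the 1.5-fold lines, with XRCC2 and ATR below them and MRE11A at the upper one.

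The spread across genes was wider at low signal, so the members were also set beside genes of like brightness. Of the members, 16 had a mean log2 signal over 8, with a median of 0.19, against 0.061 (SD 0.22 across genes) for 6987 genes of that signal. Between 6 and 8 the 15 members had a median of -0.049, against -0.0051 (SD 0.31) for 4524 genes. Between 4 and 6 the 10 members had 0.097, against -0.019 (SD 0.61) for 4745 genes. No member lay below 4, the range where the SD across all genes was 1.92.

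**Figure D2:**
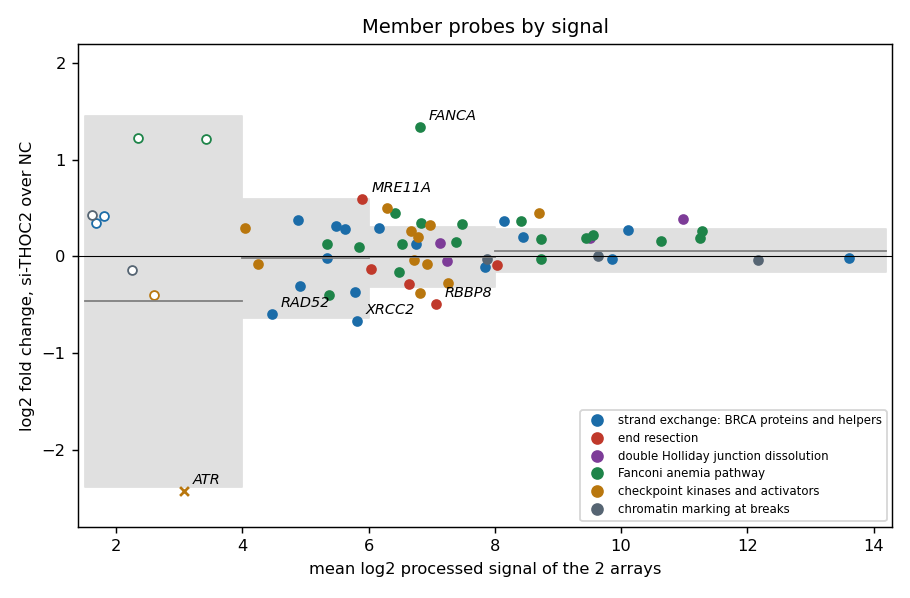
Log2 fold change of each member probe against its mean log2 processed signal over the 2 arrays. Filled points were well above background on both arrays, open points on neither, and the cross is the ATR probe measured with NC only. Grey blocks are the median ± 1 SD across all measured genes of each signal range. The blocks narrow from dim to bright, and a FANCA probe at 1.34 stands above its block.

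The first role group holds BRCA1, its partners and the proteins that help strand exchange. Of its 12 members 11 were measured, with a median log2 fold change of 0.13, and 6 were above 0 and 5 below. XRCC2, a subunit of a complex with RAD51B, RAD51C and RAD51D, was the lowest member of the group. Its 1 probe (chromosome 7, 152343931 to 152343990) read 79.1 with NC against 40.04 with si-THOC2. After scaling it was 1.59-fold lower (log2 fold change -0.67, technical SD 0.17). Among all genes of a like signal, between 4 and 6, the SD was 0.61 and 10.9% were lower by 1.5-fold. XRCC2 was below 0 under all 10 processing alternatives, and with normexp background correction it was at -0.33. For a gene whose only probe was measured on both arrays, the alternatives that change detection or probe choice cannot move the value. PALB2, the bridge between BRCA1 and BRCA2, was the highest, with 44.4 and 44.6 (log2 fold change 0.32, technical SD 0.17).

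Its partners lay closer to 0 than XRCC2. RAD51B was at 0.28, RAD51D at 0.16 and RAD51C at -0.022. XRCC3, which pairs with RAD51C, was at 0.13. XRCC3 was at -0.012 when its brightest probe was used (signals of 13920 and 11141), to which the deposited annotation assigns no RefSeq transcript. The other XRCC3 probe (1121 and 1096) was at 0.28. RAD51C was at 9.62e-05 after centring by block of spots. BARD1, the partner of BRCA1 in its ubiquitin ligase, was at 0.29. The translocase RAD54L was at 0.20 and its relative RAD54B at -0.34 (technical SD 0.12), where both RAD54B probes were below 0.

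The BRCA1 probe was printed on 10 spots. The NC signals ran from 251 to 286 with a median of 261, and those with si-THOC2 from 186 to 210 with a median of 195. These raw signals carry the dimness of the whole si-THOC2 array, so the comparison is made after scaling. There the log2 fold change was -0.11 (SD 0.049 over 10 spots), and 10 of 10 spots were below 0. BRCA2 had 1 probe, with signals of 3.36 and 3.64, and was not well above background on either array, so it has no fold change here.

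RAD52, which anneals single strands, had probes that went opposite ways. The brighter probe had signals of 276 and 288 (0.37) and the dimmer one 30.2 and 16.1 (-0.60), so the mean of -0.11 describes neither. The mean was 0.085 with normexp background correction. The deposited annotation assigns the brighter probe to a coding transcript and the dimmer one to a non-coding transcript. Which RNAs each probe reads was not tested.

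In the end resection group 4 of 5 members were below 0 and the median was -0.13. MRE11A (now MRE11), the nuclease of the MRN complex, was the exception and the highest member of all 41. Its signal was 54.2 (NC) and 65.9 (si-THOC2), which was 1.51-fold higher after scaling (log2 fold change 0.59, technical SD 0.17). RAD50, the ATPase of the MRN complex, had 10 spots with signals from 115 to 137 (NC) and from 73.1 to 92.4 (si-THOC2). After scaling its log2 fold change was -0.28 (SD 0.13), and 10 of 10 spots were below 0. The 2 subunits of one complex thus lay on opposite sides of 0, each read by 1 probe:

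MRE11A probe: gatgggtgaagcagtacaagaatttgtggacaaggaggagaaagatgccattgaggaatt
RAD50 probe: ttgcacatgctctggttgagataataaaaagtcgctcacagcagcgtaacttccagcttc

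The MRE11A probe lies at chr11:94192656-94192715 on the minus strand. The RAD50 probe (plus strand) spans chr5:131976479-131977910 on hg19, 1432 bases for 60 bases of probe, so it joins sequence from either side of an intron and reads spliced RNA. Both are shown because the contrast within the MRN complex rests on these 60-base stretches alone. MRE11A was under 1.5-fold with centring by block of spots and with normexp background correction (0.31) and stayed above 0 in all 10 alternatives.

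RBBP8 (CtIP), the cofactor that starts resection, was the lowest of the group. Its signal was 177 (NC) and 101 (si-THOC2), which was 1.41-fold lower after scaling (log2 fold change -0.49, technical SD 0.099). NBN, the third MRN subunit, was at -0.13 (technical SD 0.099). EXO1, the nuclease that extends resection, was at -0.091. Its 7 spots without an outlier flag had a mean of -0.10 (SD 0.086), and 6 of them were below 0. RBBP8 and RAD50 were thus further from 0 than NBN and EXO1.

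**Figure D3:**
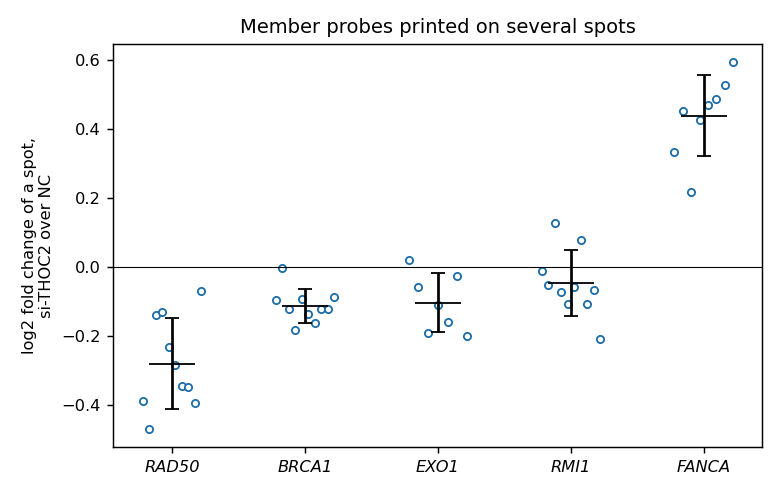
Log2 fold change of single spots (open circles) for the 5 members whose probe is printed 10 times, si-THOC2 over NC, for spots without an outlier flag on either array. Long ticks are means and bars 1 SD over spots of the same 2 RNA samples, not over replicates. All RAD50 and BRCA1 spots are below 0, all FANCA spots above 0, and the EXO1 and RMI1 spots lie on both sides.

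The dissolution group, BLM helicase with TOP3A, RMI1 and RMI2, had a median of 0.16, with 3 of 4 members above 0. RMI2 was the highest, with signals of 1973 and 2080 and a log2 fold change of 0.39 (technical SD 0.052). RMI1 was the lowest at -0.049, with 8 of its 10 spots below 0 and 2 above. TOP3A, the topoisomerase, was at 0.19 and BLM at 0.14. RMI1 was thus within 1 technical SD of a single spot (0.099) of no change, though its value is a mean of 10 spots.

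In the Fanconi anemia group 11 of 12 measured members were above 0, with a median of 0.19 and the middle values between 0.15 and 0.27. Of all measured genes 53.4% were above 0, and 56.8% with both arrays required. The core complex members FANCE (0.27), FANCL (0.28), FANCF (0.17), FANCG (0.16) and FANCB (0.13) all lay in this range or next to it, and FANCC was at 0.035. FANCC was at -0.026 after centring by block of spots. UBE2T and FANCI were both at 0.19. The count depends on the grouping, since each member was placed in a single role group. BRCA1 (-0.11), RAD51C (-0.022), XRCC2 (-0.67) and PALB2 (0.32) also count as Fanconi anemia genes but were placed under strand exchange, as was the unmeasured BRCA2.

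FANCD2, the protein that the core complex marks with ubiquitin, had measured probes at 177 and 180 (0.33) and at 97.8 and 86.3 (0.13). Their mean was 0.23 (technical SD 0.070). Its other probe was at 7.80 and 14.6 and not well above background on either array. SLX4, the nuclease scaffold, had signals of 333 and 346 and was at 0.36 (technical SD 0.052). FANCM, the translocase that anchors the core complex to DNA, was the only member of the group below 0, with signals of 53.2 and 32.5 (log2 fold change -0.40, technical SD 0.17). BRIP1, the helicase that binds BRCA1, had signals of 3.71 and 6.98, not well above background on either array.

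FANCA, a core complex subunit, was the highest of the group at 0.54, but its 3 probes disagreed by more than those of any other member measured on both arrays throughout. The probe at the lowest position on chromosome 16 (89804013 to 89804072), printed 10 times, was at 0.45 and above 0 on 8 of 8 spots without an outlier flag. The probe from 89864767 to 89864823 went from 105 to 75.4 (-0.16). The probe from 89877116 to 89877175 went from 78.5 to 160 (1.34), and its brightest-probe value alone would make FANCA a gene higher by 2-fold. FANCA is transcribed from the minus strand, so the 1.34 probe is the one nearest the start of the gene. The deposited annotation assigns the -0.16 and 1.34 probes to the same transcript and the 0.45 probe to a different transcript. Which FANCA RNAs each probe reads was not tested.

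Among the checkpoint kinases and their activators 3 of 6 members were above 0 and 3 below, with a median of 0.0024, which was at -0.00085 after quantile normalization. CHEK1, the effector kinase of ATR, was the highest. Its signal was 394 (NC) and 435 (si-THOC2), which was 1.37-fold higher after scaling (log2 fold change 0.45, technical SD 0.052), and it was above 0 in all 10 alternatives. ATM had measured probes at 0.20 (114 and 106) and -0.075 (21.8 and 16.7), and their mean was 0.062 (technical SD 0.098). With no detection filter a dim probe joined and the ATM mean was -0.091. TOPBP1, the activator of ATR, was at -0.076.

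ATR, the kinase of stalled forks, had the lowest value of all 41 members, and the value came from 1 dim spot. The probes lie on chromosome 3, minus strand:

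ATR probe at chr3:142168364-142168423: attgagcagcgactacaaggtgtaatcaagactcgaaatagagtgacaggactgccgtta
ATR probe at chr3:142185167-142185226: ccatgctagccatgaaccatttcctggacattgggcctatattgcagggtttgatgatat

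The probe at the lower position had signals of 187 and 125, a log2 fold change of -0.27 (technical SD 0.099). The other had 21.7 with NC and 3.25 with si-THOC2, where it was not well above background, so its measured -2.43 is not a fold but a bound: at least 1.103-fold lower. The gene mean of -1.35 joins these values. With both arrays required ATR was at -0.27, and with the dim signal at its limit it was at -0.21. The 2-fold call on ATR therefore rests on a signal under the detection limit.

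ATRIP, the partner that brings ATR to single-stranded DNA, also had probes of opposite sign, both of which cross an intron:

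ATRIP probe spanning chr3:48502140-48505144: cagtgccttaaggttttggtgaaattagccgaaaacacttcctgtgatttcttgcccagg
ATRIP probe spanning chr3:48505498-48506255: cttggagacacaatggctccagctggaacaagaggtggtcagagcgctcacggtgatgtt

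The upstream probe had signals of 142.2 and 88.2 (-0.38) and the downstream one 103 and 99.9 (0.26), each with a technical SD of 0.099. The difference is several times that SD, and the mean of -0.057 describes neither. ATRIP lies on the plus strand, so the lower value belongs to the probe nearer the start of the gene.

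CHEK2, the effector kinase of ATM, had 4 measured probes with log2 fold changes from -0.034 to 0.50 and a mean of 0.27 (technical SD 0.060). Its probes at the extremes share sequence:

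CHEK2 probe spanning chr22:29085156-29090031: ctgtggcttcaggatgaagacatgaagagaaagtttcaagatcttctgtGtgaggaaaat
CHEK2 probe at chr22:29085126-29085185: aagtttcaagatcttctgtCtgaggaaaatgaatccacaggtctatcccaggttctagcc

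The last 30 bases of the first and the first 30 of the second are the same stretch except for 1 base, in capitals, G50C counted from the 5′ end of the first probe. The probe across the intron had signals of 73.0 and 83.4 (0.50), and the one inside a single block 119 and 93.6 (-0.034). The reference gene table lists 6 CHEK2 pseudogenes, and how far their transcripts bind these probes was not tested, so the CHEK2 value is uncertain. The table also lists 2 pseudogenes each for RBBP8 and FANCD2 and 1 each for BRCA1, RAD52 and MRE11, and the same was not tested for their probes.

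The chromatin group marks the break for repair. MDC1, the reader of the marked histone, was at 0.0022 with signals of 886 and 716. H2AFX (H2AX), that histone, was at -0.036 with 5182 and 4077, and at 0.037 after centring by block of spots. The ubiquitin ligase RNF8 was at -0.022, and RNF168, which acts after it, had signals of 5.53 and 4.05 and was not well above background on either array. MDC1 was at -0.053 after quantile normalization and RNF8 at 0.0081 with normexp background correction. None of the 3 kept its sign in all alternatives, and all 3 values lay within 1 technical SD of 0.

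Several probes were available for only some members. Of the 13 members with more than 1 measured probe, 5 had probes within 0.25 of each other and 5 had probes further than 0.5 apart (FANCA, ATR, RAD52, ATRIP and CHEK2). In 8 of the 13 the probes lay on both sides of 0. For 29 members there was 1 probe on the array, XRCC2, MRE11A, RBBP8 and CHEK1 among them, and no second probe could bear on their values.

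The promoters were searched for motifs after the values were seen. Of the 44 members, 40 matched an entry in the RefSeq promoter table (GRCh38.p14), and NBN, RAD54B, RMI2 and FANCI did not. Searched were 3 forms of the E2F motif (TTTGGCGC, TTTCGCGC and TTCCCGCC), the CCAAT box (CCAAT) and the cell cycle homology element (TTTGAA), in the 250 bases before each start on both strands. An E2F form was found in 6 of 40 members (15%), namely RAD52, RAD54L, BLM, TOP3A, FANCL and FANCC, and in 5.05% of 15843 protein-coding promoters. CCAAT was found in 18 (45%), against 34.5% of all, and TTTGAA in 6 (15%), against 10.8%. No member held more than 1 of the E2F forms. Measured members with an E2F form had a median log2 fold change of 0.16 (6 genes) and those without 0.13 (31 genes). With CCAAT it was 0.14 (17 genes) and without 0.083 (20 genes). With TTTGAA it was 0.035 (5 genes) and without 0.15 (32 genes), the other way round. A match is a string of letters and not a binding site.

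The promoters of the lowest and the highest member among those with every probe well above background on both arrays are printed for comparison, with CCAAT or its reverse complement in capitals:

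XRCC2 promoter, chr7:152676142-152676391, minus strand: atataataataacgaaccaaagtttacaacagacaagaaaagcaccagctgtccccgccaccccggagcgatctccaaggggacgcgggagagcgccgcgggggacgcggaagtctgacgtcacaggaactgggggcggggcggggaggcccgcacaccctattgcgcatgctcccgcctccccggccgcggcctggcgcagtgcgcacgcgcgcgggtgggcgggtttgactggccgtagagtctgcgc
MRE11A promoter, chr11:94493845-94494094, minus strand: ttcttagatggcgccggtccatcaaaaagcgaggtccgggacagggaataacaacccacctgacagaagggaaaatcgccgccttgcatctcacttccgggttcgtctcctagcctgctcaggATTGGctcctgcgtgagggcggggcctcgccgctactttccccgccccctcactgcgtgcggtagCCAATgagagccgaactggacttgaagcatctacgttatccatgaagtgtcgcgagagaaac

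The MRE11A window held CCAAT at 62 bases before the start and its reverse complement at 127 bases before it. None of the 5 motifs was found in the XRCC2 window.

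Gene length and signal were set beside the values. Across the 41 members, as a description with no test, Spearman's rho of the log2 fold change with gene length was -0.15 and with mean log2 signal 0.25, while across all genes these were -0.041 and 0.15. The points share the same 2 arrays. Only these 2 relations were computed.

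Genes of the same and neighbouring pathways were described from lists chosen with earlier results of these data known. Of 35 other recombination and Fanconi genes 32 were measured, with a median of 0.0092 (-0.017 after quantile normalization) and 16 on either side of 0. On probes measured on both arrays 3 of them passed 2-fold, 1 higher and 2 lower. With both arrays required, 0.837% of all genes were higher and 0.352% lower by 2-fold. GEN1, a nuclease that cuts Holliday junctions, went from 21.2 to 48.6 (1.51, technical SD 0.17). HELQ, a helicase, went from 94.4 to 34.7 (-1.13), and EME2, a nuclease partner of MUS81, from 81.6 to 32.4 (-1.02). These shifts are larger than any of the 44 members had on probes measured on both arrays, FANCA's 1.34 probe apart.

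Other break signalling genes had a median of 0.062 over 15 of 16 measured (-0.013 with normexp), and end joining genes 0.060 over 9 of 10 (-0.00075 with normexp). No gene of these lists passed 1.5-fold. The 29 G1/S and replication genes stood higher: the median was 0.34 and 27 of 29 were above 0. In the 10 alternatives this median ran from 0.21 to 0.36. By 1.5-fold or more 3 of them were higher, against 6.03% of all measured genes (3.53% with both arrays required). The 3 were ORC1 (0.93), a subunit of the origin recognition complex, the helicase subunit MCM5 (0.69) and the licensing factor CDT1 (0.66). The members lay between the replication genes and all genes, and how far cell cycle position took part in any member's value was not tested.

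**Figure D4:**
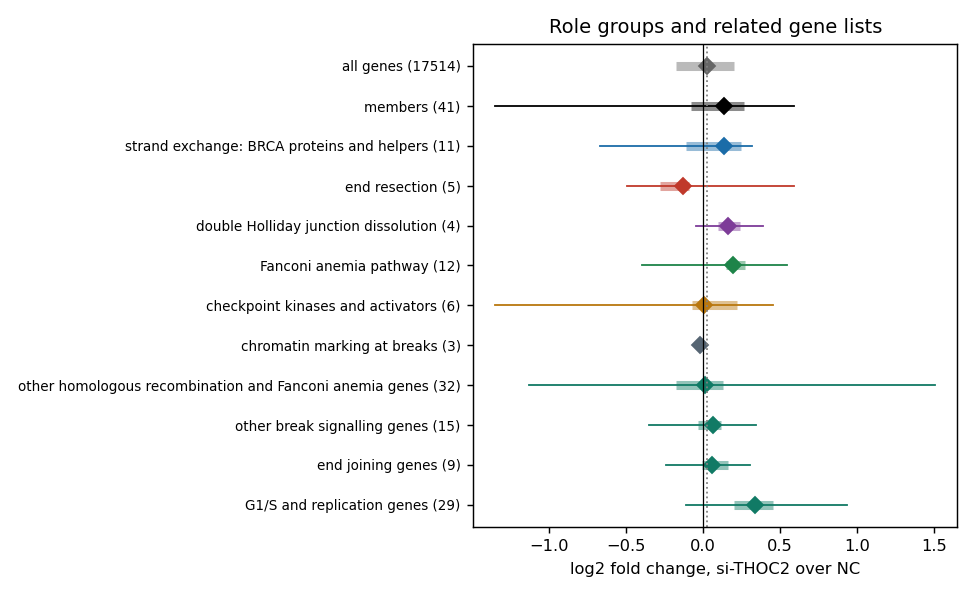
Log2 fold change by gene list, si-THOC2 over NC, with the number of measured genes in brackets. Diamonds are medians, thick bars the 25th to 75th percentile and thin lines the full range (not drawn for all genes). The members' median of 0.13 sits above that of all genes at 0.023 and below that of the G1/S and replication genes at 0.34, and end resection is at -0.13.

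Processing moved single members more than the group. Of the 41 members, 33 kept their sign in all 10 alternatives, 21 above 0 and 12 below. The alternatives are not independent checks. Where a member's only probe was measured on both arrays, the detection and probe settings left its value as it was. The authors' values nearly repeated quantile normalization, and median scaling moved every value only slightly. The members' median ran from 0.059 with normexp background correction to 0.15 with no detection filter. With no filter the median of all 34757 genes was itself 0.24, above the members, so there the order of members and all genes turned. In the other 9 alternatives the members' median was the higher of the pair.

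**Figure D5:**
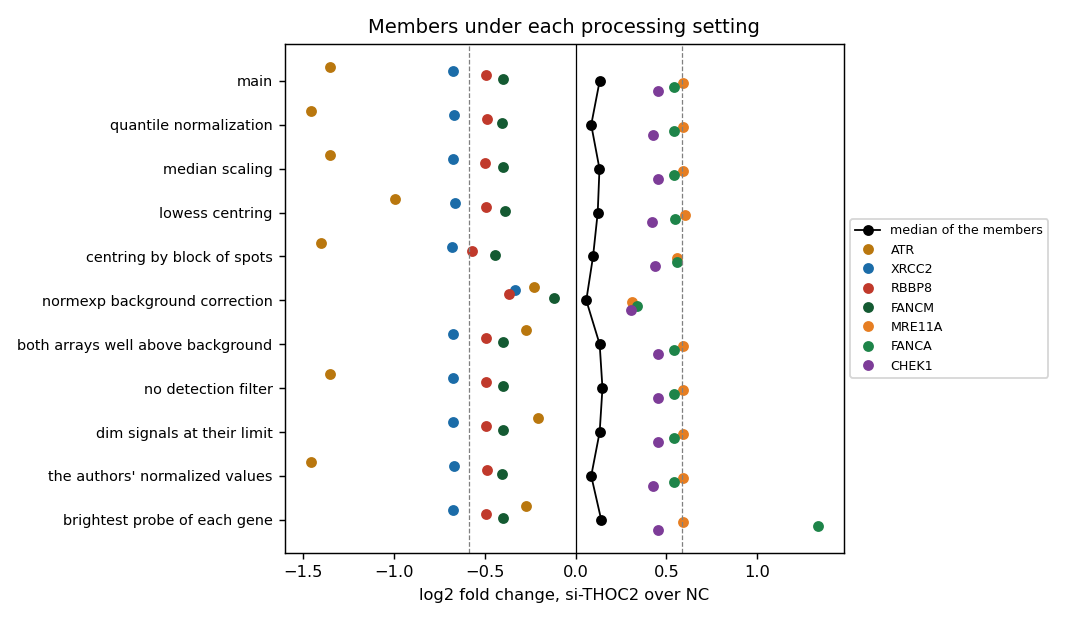
Log2 fold change of 7 members and the median of all members (black, joined) under the main setting and 10 alternatives. Dashed lines mark 1.5-fold. ATR moves from -1.35 to between -0.21 and -0.27 wherever its dim spot is left out, limited or background-corrected by normexp, FANCA moves to 1.34 with its brightest probe, and the others keep their sign.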

How the data were processed

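RNA from 1 A375 culture with NC and 1 with si-THOC2 was measured on 1 array each. The authors deposited scanner intensity values per spot from Agilent Feature Extraction 10.7.1.1, per the labels, with background subtraction and flags for outliers and for signals well above background. They also deposited normalized log2 values (quantile-normalized, as their sorted values match to within 0.000788) and a comparison table of fold changes, which was not used. The methods' Student test could not be run without replicates.

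Controls and outlier-flagged spots (147 and 168 non-control spots, NC and si-THOC2) were dropped, no spot was saturated, and log2 signals were averaged per probe (58199 probes). Of these, 24616 (42.3%) and 22936 (39.4%) were well above background. The log2 processed signal minus the array's 75th percentile was compared, and a gene was given the mean over its measured probes. A probe measured on 1 array only gives a bound. The dim side is set to the larger of its signal and that array's detection limit, the dimmest signal called well above background (14.7 and 15.9). The number of arrays limits the precision. On simulated data of this comparison, 198 of 200 changed genes were called at 2-fold, with 16 calls among 16856 others. These counts only check that the calling steps return changes that were put in. With no replicate, differences between cultures could not be simulated from the data, so the counts are not error rates for the members. How well changes are called on dim probes or on probes that disagree was not tested.

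The rule for members uses gene symbols only, but the members and gene lists were chosen with earlier results of these data known. Named are THOC2, members at 1.5-fold or more, the highest and lowest of each role group, BRCA1, BRCA2, FANCD2, ATM, ATR, CHEK1, members with discordant or no measured probes, and listed genes at 1.5-fold or more; the rest are given in brief. The alternatives were quantile normalization, median scaling, lowess centring (span 0.3), centring by block (16 by 8), normexp (offset 50), no detection filter, both arrays measured, the authors' values, the brightest probe, and dim signals at their limit. Python 3.11.15, pandas 2.3.3, statsmodels 0.14.6, R 4.3.3 and limma 3.58.1 were used. Positions are hg19 per the deposited annotation. Exons, UTRs and proteins were not analysed here. Results for 1 gene of the lists are not reported here.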

Additional observations from a re-analysis of the deposited data

How the results depend on the processing

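No paired analysis was possible because neither condition had a replicate. The members' median stayed above 0 in all 10 alternatives. No member was higher by 2-fold in the main setting, against 1 with no detection filter (BRIP1, dim on both arrays) and 1 with the brightest probe (FANCA). The 1 member lower by 2-fold (ATR) became 0 with lowess centring, normexp background correction, the brightest probe, dim signals at their limit, and both arrays required. The 1 member higher by 1.5-fold became 0 with centring by block of spots and with normexp, 2 with no detection filter and 2 with the brightest probe. The 2 members lower by 1.5-fold became 0 with normexp, and 1 with the brightest probe, 1 with both arrays required and 1 with dim signals at their limit. THOC2 was at -0.51 with normexp and -1.42 with its brightest probe. The normexp setting adds an offset of 50 to every signal, which makes the log2 difference between arrays smaller for dim probes. How much of each shift came from this offset was not tested. The detection and probe settings change which probes enter. Under normexp 1.47% of all genes were higher by 1.5-fold and 0.874% lower. Signal near background limits ATR, BRCA2, BRIP1 and RNF168 most.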
